A study of Mus musculus with 30 samples.

Results

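The 6 genes described here encode the zinc finger factors *Egr1*, *Egr2* and *Egr3* and the orphan nuclear receptors *Nr4a1*, *Nr4a2* and *Nr4a3*, which were picked by gene symbol from the 28586 genes listed over all tables of the series. RNA of the small bowel muscularis externa (*ME*), the muscle wall of the gut with its nerve plexus, was sequenced in a mouse model of post-operative ileus, in which the bowel is rolled with cotton swabs after laparotomy (intestinal manipulation, IM). One fraction was mRNA bound to HA-tagged RPL22 of *Sox10*-expressing cells (*RiboTag*), and the other was total *ME* RNA. The tables hold 29 libraries, namely 3 naïve *RiboTag* libraries and 4 each at 3 h (IM3h), 24 h (IM24h) and 72 h (IM72h) after IM, and 3 naïve *ME* libraries with 3 at IM3h and 4 each for IM24h and IM72h. The labels give 4 naïve *RiboTag* samples, against the 3 libraries analysed here. The series asks how enteric glia react to surgery, and the comparisons here ask when and in which fraction these genes changed after IM.

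Mice were adult males by the study's methods, and all labels give a cross with B6N.129 Rpl22tm1.1Psam/J, which carries the tagged ribosomal protein. *RiboTag* libraries of every group were labelled with the Cre line B6 Tg(Sox10-icre/ERT2)388Wdr/J, in which tagging depends on the *Sox10* promoter at the time of tamoxifen. Total *ME* libraries were labelled with B6.Cg-Tg73.12Mvs/J(Gfap-cre) in naïve and IM3h groups and with the *Sox10* line in IM24h and IM72h groups, so the mouse line and a later time point cannot be told apart in the *ME*. Naïve mice had no operation, and no sham-operated group was analysed here, so anaesthesia, analgesia and laparotomy go together with IM. The same 3 naïve libraries serve all *RiboTag* comparisons, and the same holds for the naïve *ME* libraries.

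*Egr* and *Nr4a* genes are immediate early genes, whose transcription starts without new protein synthesis when calcium, cAMP or growth factor signals reach a cell. Serum response factor with its ternary complex partners acts on CArG boxes, and CREB acts on cAMP response elements (CRE) near their starts. EGR proteins bind GC-rich sites and are held in check by the corepressors NAB1 and NAB2. NR4A proteins act without a ligand on the NBRE motif as single proteins, and some of them also pair with retinoid X receptors. In the peripheral nervous system EGR2 is the main driver of myelination in Schwann cells, and *Egr1* and the *Nr4a* genes are widely used as readouts of recent cell activation.

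The letters of known regulatory motifs were looked up in the 250 bases before the annotated start of members in the RefSeq table (GRCm38.p6), on both strands. *Egr2*, *Nr4a1*, *Nr4a2*, *Nr4a3* and the relative *Egr4* were searched, and *Egr1* and *Egr3* were not. For *Egr2*, which has 5 starts, the one of its first annotated transcript was used. The motifs were the full CRE (TGACGTCA), its core TGACG, the CArG box, the Egr sites GCGTGGGCG and GCGGGGGCG and the NBRE (AAAGGTCA), of which the core lies inside the full CRE. The stretches below are shown because they hold 2 matches each, and the second *Egr2* stretch and 1 of 2 such stretches of *Egr4*, with 1 match each, are added so that both genes can be compared with the *Nr4a* genes, with matched letters in capitals (TGACG or, on the other strand, CGTCA).
*Egr2* (chr10:67537794-67537821, + strand, CArG box and CRE core): agtCCATATATGGgcagcgaCGTCAcgg
*Egr2* (chr10:67537747-67537774, + strand, CRE core): aattggccatgTGACGgcaaaagctgcc
*Nr4a1* (chr15:101266612-101266639, + strand, 2 CRE cores): gCGTCAatggaaccccgcgtgCGTCAcg
*Nr4a1* (chr15:101266772-101266799, + strand, CRE core and Egr site): gtgtgCGTCAgtggCGCCCCCGCccctc
*Nr4a2* (chr2:57124121-57124148, - strand, 2 CRE cores): gCGTCAcggagcccggccgggcTGACGg
*Nr4a3* (chr4:48045072-48045099, + strand, 2 CRE cores): ggTGACGtagcgtcccatgtCGTCAcat
*Nr4a3* (chr4:48045089-48045116, + strand, 2 CRE cores): tgtCGTCAcatTGACGtctcgcattcca
*Egr4* (chr6:85513682-85513709, - strand, CRE core): ttggtcatttaCGTCAcggcgccagggc

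The core TGACG occurred 4 times each before *Nr4a1*, *Nr4a2* and *Nr4a3* and 2 times each before *Egr2* and *Egr4*. The printed *Nr4a3* stretches overlap and share the core that lies 213 to 209 bases before the start. Some cores lie outside the printed stretches. Of 32851 windows of this length, which leave out chromosome 18, 17.8% held at least 1 core and 0.137% held 4 or more. The CArG box before *Egr2* lay 72 to 63 bases upstream of the start, and 1.47% of windows held a CArG box. A GCGGGGGCG site lay 60 to 52 bases before the start of *Nr4a1*, against 2.57% of windows. None of the 5 windows held a full CRE (1.55% of windows), GCGTGGGCG (0.536%) or the NBRE (1.34%). These are matches of letters and describe neither binding nor a cause.

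**Figure D1:**
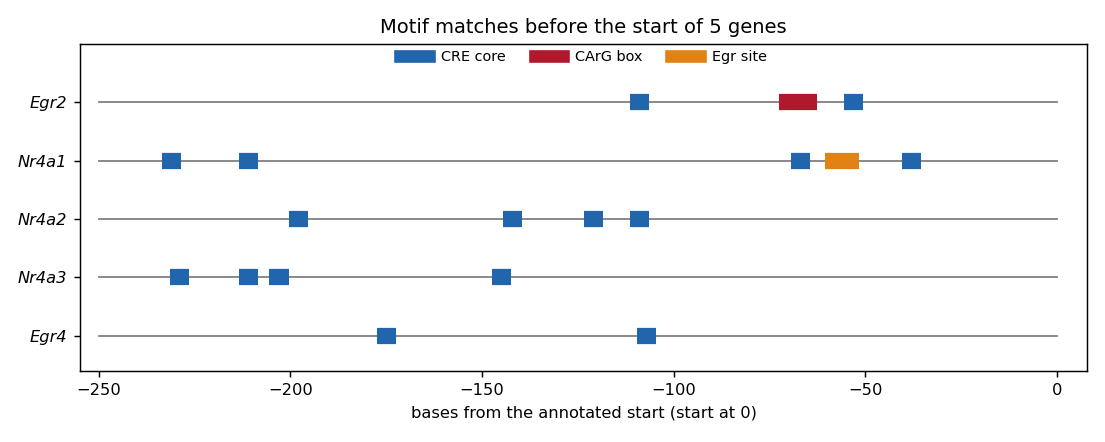
Positions of motif letters in the 250 bases before the annotated start of *Egr2*, *Nr4a1*, *Nr4a2*, *Nr4a3* and *Egr4*. The horizontal axis gives the distance from the start in bases, and coloured boxes mark the CRE core TGACG, the CArG box and the Egr site GCGGGGGCG on either strand. Each *Nr4a* gene has 4 CRE cores, and *Egr2* has the single CArG box.

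In mm10, *Egr1* lies on chromosome 18 from 34859823 to 34864984, *Egr2* on chromosome 10 from 67535475 to 67542188 and *Egr3* on chromosome 14 from 70077203 to 70082614. *Nr4a1* lies on chromosome 15 from 101254269 to 101274795, *Nr4a2* on chromosome 2 from 57106830 to 57124003 and *Nr4a3* on chromosome 4 from 48045153 to 48086447. *Nr4a2* is on the minus and the others are on the plus strand, and all 6 are protein-coding genes in the GENCODE annotation.

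Library totals ranged from 3010306 to 7899493 estimated counts in *RiboTag* and from 6603170 to 12866062 in *ME* libraries. The share of AY036118, which lies within an rRNA gene, was 2.02% to 14.0% of the total in naïve and IM3h *RiboTag* libraries, 22.2% to 59.2% at IM24h and 58.0% to 80.1% by IM72h, when 663808 to 1619377 counts were left for all other genes. In *ME* libraries this share was 16.1% to 33.5% in naïve mice and 24.1% to 25.1% at IM3h, against 1.33% to 6.50% and 2.34% to 3.69% at the later time points. Fits without rRNA genes changed no sign and no call of the 6 genes in any comparison. Levels below are CPM, counts relative to library totals that were adjusted by TMM over all libraries of a fraction, and the fractions were scaled apart. Summed levels of 6 glial markers were 1550 to 1871 CPM in naïve *RiboTag* and 117 to 139 CPM in naïve *ME* libraries. Smooth muscle markers, also 6, were still at 4853 to 7491 CPM in naïve *RiboTag* against 22033 to 23616 CPM in naïve *ME* libraries, so mRNA of other cells was part of the *RiboTag* fraction.

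At IM3h the *Egr* and *Nr4a* genes were higher in *RiboTag* libraries than in naïve mice, with 5 of the 6 passing the test, where 8.86% of all 16053 genes tested were called higher. Calls rest on edgeR's two-sided quasi-likelihood test at a Benjamini-Hochberg adjusted p under 0.05 over all genes tested. *Egr1*, which couples growth factor signals to gene expression, was at 14.5, 25.4 and 8.73 CPM in the 3 naïve libraries and at 908, 1277, 1409 and 1011 CPM in the 4 IM3h libraries. Every IM3h library lay far above every naïve library. The groups did not overlap, with IM3h higher by any margin, for 5 of the 6 genes and for 15.3% of all genes. The rise was 6.21 on the log2 scale (edgeR adjusted p = 1.70e-05 with a standard error of 0.44) and ranked 141 among all genes tested.

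*Egr2*, the Schwann cell factor, had 0, 0 and 1 counts in the naïve *RiboTag* libraries and 348, 316, 169 and 49 counts at IM3h. All 4 IM3h libraries held the gene, at levels from 4.55 to 30.0 CPM, whereas it was all but absent from naïve libraries. Pooled counts gave a ratio of 520 with an exact 95% interval for counting error alone of 93.0 to 20545, and the fitted change (8.65 on the log2 scale, edgeR adjusted p = 3.58e-04) depends on the prior count. *Egr3*, a close relative of *Egr1* that also serves in muscle spindles and T cells, had 0, 1 and 6 counts in naïve libraries and 648, 507, 720 and 382 counts at IM3h. Its groups lay apart as well, with 35.5 to 83.3 CPM at IM3h against at most 0.708 CPM. The pooled ratio was 190 (interval 92.0 to 473), and the fitted change was 7.61 (edgeR adjusted p = 6.19e-05 with a standard error of 0.71).

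*Nr4a1*, the receptor also called Nur77, stood at 9.48, 5.62 and 18.5 CPM in naïve *RiboTag* libraries and at 99.3, 191, 179 and 68.9 CPM at IM3h. The groups did not overlap, and the rise was 3.65 on the log2 scale (edgeR adjusted p = 6.87e-04 with a standard error of 0.49). *Nr4a2*, known as Nurr1 and needed for dopaminergic neurons, was at 0, 8.88 and 8.49 CPM in naïve libraries and at 45.7, 95.4, 71.0 and 28 CPM at IM3h. It rose by 3.43 (edgeR adjusted p = 0.0217 with a standard error of 0.86) and was high in all 4 IM3h libraries.

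*Nr4a3*, or NOR1, was at 0, 4.04 and 4.48 CPM in naïve *RiboTag* libraries and at 16.2, 15.5, 23.9 and 1.3 CPM at IM3h. The first 3 values lay above all naïve libraries, and IM3h library 4, with 14 counts, lay among them. Its log2 fold change was 2.38 (edgeR adjusted p = 0.177 with a standard error of 1.07), and without IM3h library 4 it was 2.75 with an adjusted p of 0.0428. In the other fits with a library left out it did not pass, with adjusted p-values up to 0.374, and the change went down to 1.81 without naïve library 1. Naïve library 1, in which both *Nr4a2* and *Nr4a3* had 0 counts, had 75 counts of *Nr4a1* and a total of 4940655, and AY036118 took 14.0% of it.

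The call of *Nr4a2* was lost without naïve library 2 or 3 or IM3h library 2 or 3, with adjusted p-values of edgeR up to 0.0647, with DESeq2 (0.0509) and under scaling by *Actb*, *Hsp90ab1* and *Rplp1* (0.148). DESeq2 called 4 of the 6 genes, where it called 12% of all genes higher. In 1 fit over all 4 *RiboTag* groups *Egr1* alone of the 6 genes was called, and 0.123% of all 17930 genes were called higher there. Leaving out naïve library 3 raised the fitted changes of *Egr2* and *Egr3* to 10.68 and 9.63 on the log2 scale. All 6 genes kept their direction under every scaling tried. Beside these rises, 4 of 6 fibroblast markers, 3 of 6 smooth muscle markers and 3 of 4 tested mesothelial markers fell in *RiboTag* libraries at IM3h, and of 6 glial markers 1 rose and 2 fell. Summed fibroblast markers went from between 969 and 1234 CPM to between 361 and 512 CPM, and summed glial markers from between 1550 and 1871 CPM to between 1291 and 2802 CPM. The part of these shifts in the result was not tested. In tissue RNA and in precipitated RNA alike, more or fewer cells of a type and more or less RNA per cell cannot be told apart.

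**Figure D2:**
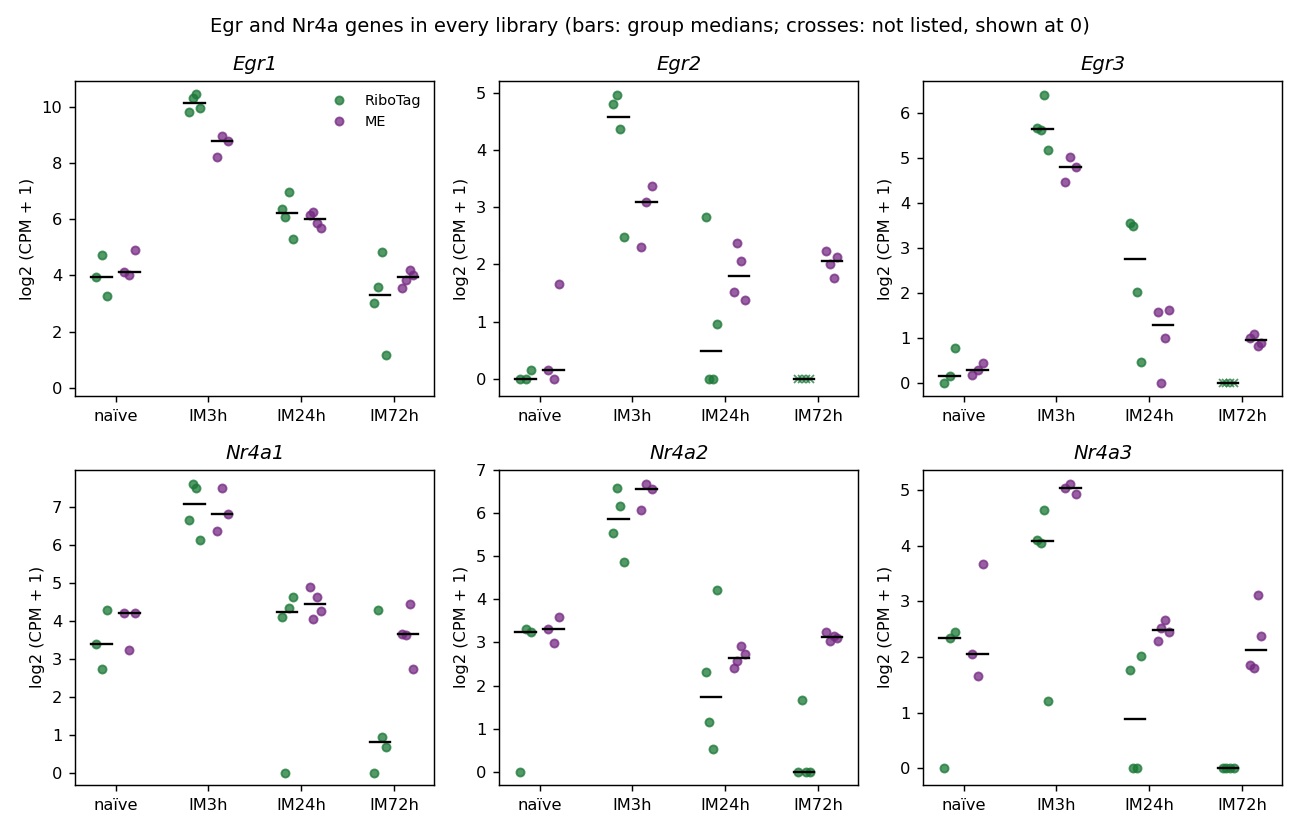
Levels of the 6 genes in every library, as log2 (CPM + 1) on the vertical axis, by time point on the horizontal axis. Green points are *RiboTag* and purple points *ME* libraries, bars are group medians, and crosses mark genes that the IM72h *RiboTag* table does not list. The IM3h libraries stand highest for each gene in both fractions by their medians, and in the *ME* all IM3h libraries lie above all other libraries of the fraction for 5 genes, with *Egr2* as the exception.

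In total *ME* RNA all 6 genes rose at IM3h, against 19.3% of the 15333 genes tested that were called higher. *Egr1* went from 16.4, 15.3 and 28.9 CPM in naïve mice to 298, 502 and 443 CPM, a rise of 4.38 on the log2 scale (edgeR adjusted p = 2.30e-06 with a standard error of 0.27). *Egr3* went from 1, 1 and 3 counts to 151, 216 and 163 counts. Its rise of 6.76 (edgeR adjusted p = 8.57e-07 with a standard error of 0.35) ranked 15 among all genes tested, with a pooled ratio of 113 (interval 48.1 to 349). For both genes the lowest IM3h library stood far above the highest naïve library, and the IM3h libraries lay above all naïve ones for all 6 genes, as for 25.3% of all genes tested.

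*Egr2* was low in the *ME*, with 1, 0 and 18 counts in naïve libraries and 28, 51 and 56 counts at IM3h. The groups lay apart, although naïve library 3, with 2.18 CPM, came close to the lowest IM3h library, with 3.94 CPM. The rise was 3.03 on the log2 scale (edgeR adjusted p = 0.0176 with a standard error of 0.82), and the adjusted p reached 0.0564 with a library left out, namely naïve library 1 or IM3h library 2 or 3, and 0.0747 with DESeq2. Without naïve library 3 the change of *Egr2* was 6.17.

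The 3 *Nr4a* genes rose as well in the *ME*. *Nr4a1* went from 17.4, 8.38 and 17.4 CPM to 80.7, 178 and 111 CPM, a log2 fold change of 3.11 (edgeR adjusted p = 5.52e-05 with a standard error of 0.31). *Nr4a2* went from 8.93, 6.88 and 11 CPM to 66.3, 101 and 93.1 CPM, a change of 3.30 (edgeR adjusted p = 2.30e-06 with a standard error of 0.20). *Nr4a3* went from 3.14, 2.15 and 11.7 CPM to 31.6, 33.4 and 29.2 CPM, a change of 2.45 (edgeR adjusted p = 0.00248 with a standard error of 0.45). In each case no IM3h library reached down to a naïve library. Without naïve library 3 the change of *Nr4a3* was 3.52.

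At the same time point 5 of 6 fibroblast markers, 4 of 5 mesothelial markers and 3 of 4 markers of interstitial cells of Cajal fell in the *ME*, and both neutrophil markers that could be tested rose. Summed neutrophil markers stood at 0.845 to 0.860 CPM in naïve and at 21.6 to 30.0 CPM in IM3h libraries, over 5 of the 6 markers, since the *ME* table does not list *Ly6g*. What part these cells had in the rise of *Egr* and *Nr4a* genes was not tested. Naïve and IM3h *ME* libraries carry the same mouse line in their labels, so the comparison at IM3h lies within 1 line.

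Whether the rise at IM3h differed between the fractions was tested as an interaction of fraction and time. None of the 6 genes passed (edgeR, 1.66% of 17617 genes called), 2 had an unadjusted p under 0.05 and a rise more than 2-fold larger in *RiboTag* libraries, as had 5.99% of genes, and DESeq2 called 2, where it called 2.26% of genes higher. The rise of *Egr1* was larger in *RiboTag* than in *ME* libraries by 1.91 on the log2 scale (95% interval 0.90 to 2.91, edgeR adjusted p = 0.0554), and DESeq2 gave an adjusted p of 0.00603 and the robust quasi-likelihood fit 0.0493. With edgeR it also passed without naïve *RiboTag* library 2 (0.0182), IM3h *RiboTag* library 1 (0.0493) or IM3h *RiboTag* library 4 (0.0327). It did not pass in any other fit with a library left out, with adjusted p-values up to 0.187 and a difference down to 1.53, both without naïve *ME* library 3. For *Egr2* the difference was 5.64 (interval 2.11 to 9.17, edgeR adjusted p = 0.106) and rested on 1 naïve *RiboTag* count. It was 2.42 without naïve *ME* library 3, and 5.99 with an adjusted p of 0.0342 without IM3h *RiboTag* library 4. For the other genes the intervals took in 0, from −1.41 to 3.25 for *Egr3*, −0.71 to 1.93 for *Nr4a1*, −1.79 to 2.19 for *Nr4a2* and −2.94 to 2.88 for *Nr4a3*. With a library left out the difference ranged from 0.36 to 2.91 for *Egr3* and from 0.28 to 1.18 for *Nr4a1*. The 2 fractions come from different mouse lines by their labels at this time point, which cannot be told apart from the fraction.

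**Figure D3:**
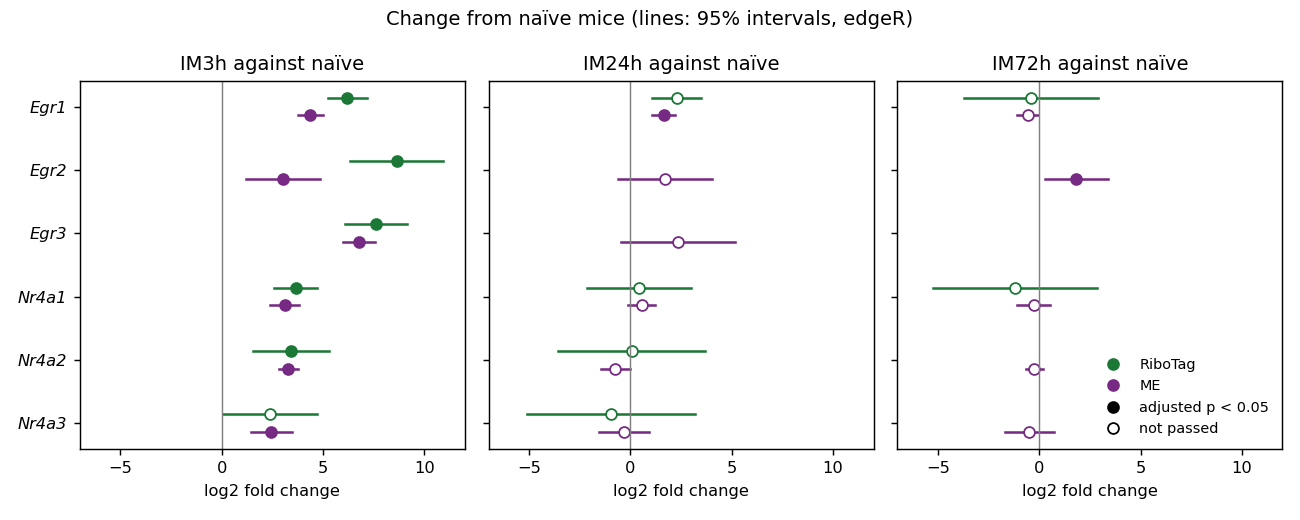
Changes of the 6 genes from naïve mice as log2 fold changes (horizontal axis) at each time point. Points are edgeR estimates with 95% intervals, filled where the adjusted p was under 0.05, in green for *RiboTag* and purple for *ME*, and genes that did not pass the filter on low counts have no point. At IM3h 11 of 12 points are filled, and 1 each at the later time points.

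At IM24h *Egr1* in *RiboTag* libraries stood at 81.5, 66.3, 125 and 38.6 CPM. All 4 values were above the naïve range of 8.73 to 25.4 CPM and below the IM3h range. The change from naïve mice was 2.28 on the log2 scale (edgeR adjusted p = 0.0838 with a standard error of 0.55, DESeq2 0.00817). Of the 4 genes that could be tested 0 were called by edgeR, where 0.497% of 15304 genes were called in either direction, 1 had an unadjusted p under 0.05 and DESeq2 called 1, *Egr1* in both cases, where DESeq2 called 3.21% of genes higher. The libraries of *Egr1* lay above all naïve ones, as for 6.97% of genes, and 6.62% of genes had an unadjusted p under 0.05 and a rise of more than 2-fold. In this comparison 3 of 6 smooth muscle markers fell. Summed glial markers were 772 to 918 CPM, against 1550 to 1871 CPM in naïve libraries, with 0 of 6 called, and their part in the result was not tested.

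*Egr2* and *Egr3* did not pass the filter on low counts at IM24h. *Egr2* had 49, 0, 0 and 5 counts in the 4 *RiboTag* libraries and *Egr3* had 86, 25, 7 and 2 counts. Most of these counts lay in IM24h library 1, which also had the smallest share of AY036118 of its group. The pooled ratios to naïve mice were 76.0 for *Egr2* (interval 13.1 to 3056, counting error alone) and 24.1 for *Egr3* (interval 11.4 to 61.3). *Nr4a1* had 130, 0, 44 and 125 counts, *Nr4a2* 32, 3, 1 and 92 and *Nr4a3* 19, 0, 0 and 16 counts, and each of the 3 overlapped naïve libraries.

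Compared with IM3h, *Egr1* fell by 3.83 on the log2 scale at IM24h in *RiboTag* libraries (edgeR adjusted p = 6.77e-04 with a standard error of 0.42). It was the only one of the 6 genes called by edgeR, where 0.937% of 14193 genes were called lower. The other 5 had log2 fold changes between −3.07 and −3.31 with adjusted p-values from 0.0659 to 0.266, and DESeq2 called 5 of the 6, all but *Nr4a3*, where it called 3.69% of genes lower. A second gene passed with edgeR when an IM24h library was left out, *Egr2* without library 1 (−5.56, adjusted p 0.0497), *Nr4a1* without library 2 (−2.71, 0.0290) and *Nr4a2* without library 4 (−4.77, 0.0291). Libraries of the time points lay apart for *Egr1*, *Egr3*, *Nr4a1* and *Nr4a2*, as for 10.5% of genes downwards, and overlapped for *Egr2* and *Nr4a3*. All 6 had an unadjusted p under 0.05 and a level more than 2-fold lower, where 7.24% of genes did. Summed glial markers were 1291 to 2802 CPM at IM3h and 772 to 918 CPM at IM24h in *RiboTag* libraries, and summed macrophage markers 61.4 to 125 CPM and 150 to 269.9 CPM, and their part in these differences was not tested.

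In the *ME* at IM24h, *Egr1* was at 70.2, 75.4, 57.4 and 51.0 CPM, above every naïve library, a rise of 1.64 (edgeR adjusted p = 0.00132 with a standard error of 0.26). It was the only member called, where 15.6% of 16328 genes were called higher and the libraries of 20.2% lay above all naïve ones. *Egr2* was at 1.88, 4.20, 3.18 and 1.61 CPM and overlapped naïve libraries through naïve library 3 (2.18 CPM). Without that library its change was 4.95 in place of 1.72, with an edgeR adjusted p of 0.0273 in place of 0.242. *Egr3* was at 1.97, 0, 1.0 and 2.06 CPM, and without IM24h library 2, the one at 0, its change was 2.76 with an adjusted p of 0.0325 in place of 2.35 and 0.189. In the same comparison 5 of 6 smooth muscle markers fell, and 5 of 7 macrophage markers and 4 of 4 tested neutrophil markers rose, and their part in these values was not tested.

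*Nr4a2* was the member that went below its naïve level in every *ME* library at IM24h, with 4.33, 4.90, 6.55 and 5.62 CPM against 6.88 to 11 CPM, as for 20.7% of genes. The difference of −0.75 on the log2 scale did not pass the test (edgeR adjusted p = 0.106). In 1 fit over all *ME* groups it did (0.00938), with *Egr1* and *Egr3* called beside it and 37.1% of all genes called, and with library totals in place of TMM the difference was −0.13. *Nr4a1* at 15.6 to 28.5 CPM and *Nr4a3* at 3.86 to 5.36 CPM overlapped naïve libraries, with edgeR adjusted p-values of 0.200 and 0.687. With library totals *Nr4a1* was called higher (1.17 in place of 0.56, adjusted p 0.0181). There 6281 of 16328 genes were called higher in place of 2553, and the median of all genes was 0.66.

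From IM3h to IM24h 5 of the 6 genes fell in the *ME*, against 13.4% of 16199 genes called lower. The IM24h libraries of the same 5 lay below every IM3h library, as for 19.9% of genes. *Egr3* fell by 4.36 and *Nr4a2* by 3.97 on the log2 scale (standard errors 0.65 and 0.22, edgeR adjusted p = 0.00115 and 9.29e-06). *Nr4a3* fell by 2.73, *Egr1* by 2.66 and *Nr4a1* by 2.47, with adjusted p-values up to 3.02e-04. *Egr2* had a log2 fold change of −1.30 (edgeR adjusted p = 0.0718 with a standard error of 0.49), and IM24h library 2, at 4.20 CPM, lay above the lowest IM3h library at 3.94 CPM. Without that library the change was −1.60 with an adjusted p of 0.0389, and DESeq2 called *Egr2* too (−1.32, adjusted p 0.0423), so that it called all 6, where it called 16.1% of genes lower. Summed macrophage markers were 382 to 551 CPM in these IM24h libraries and 141 to 157 CPM at IM3h, and summed smooth muscle markers 3152 to 10758 CPM and 16623 to 19784 CPM, and their part in the falls was not tested.

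At IM72h few counts of these genes were left in *RiboTag* libraries. The IM72h table, which lists only transcripts with a total of at least 10 counts, does not list *Egr2* and *Egr3*. *Egr1* had 15, 25, 29 and 2 counts (7.09, 10.9, 27.7 and 1.23 CPM), which overlapped naïve libraries in CPM. *Nr4a1* had 0, 42, 1 and 1 counts and *Nr4a2* 0, 5, 0 and 0 counts, so that IM72h library 2 held nearly all of both. *Nr4a3* had 0 counts in all 4 libraries, against 0, 36 and 38 counts in naïve mice. Summed glial markers were 143 to 1454 CPM in these libraries and 1550 to 1871 CPM in naïve *RiboTag* libraries. Summed macrophage markers were 218 to 471 CPM and 82.6 to 165 CPM, and the part of these markers in the low counts was not tested.

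Against naïve mice, 0 of the 2 genes tested at IM72h were called in *RiboTag* libraries by edgeR or DESeq2, 0 had an unadjusted p under 0.05, and 16.1% of 13572 genes were called by edgeR and 17% by DESeq2. The log2 fold changes were −0.42 for *Egr1* (edgeR adjusted p = 0.946 with a standard error of 1.49) and −1.19 for *Nr4a1* (edgeR adjusted p = 0.846 with a standard error of 1.83). Without IM72h library 2 the change of *Nr4a1* was −4.58 with an edgeR adjusted p of 0.0433. For *Nr4a3* the pooled level was at least 6.90-fold lower than in naïve mice, with 3 counts over the group as the floor. Against IM24h 0 of 2 genes were called, as were 0 of all 9344 genes (0%, with 4.81% at an unadjusted p under 0.05 and more than 2-fold lower), with 1 of the 2 at an unadjusted p under 0.05 (*Egr1*, −2.61, edgeR adjusted p = 0.598) and 0 called by DESeq2, against 1.16% of genes.

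In the *ME* at IM72h, *Egr2* was at 3.69, 3.0, 2.41 and 3.37 CPM against 0.121, 0 and 2.18 CPM in naïve mice. It was the only 1 of 5 genes tested that was called, with a rise of 1.82 (edgeR adjusted p = 0.0447 with a standard error of 0.70), where 57.5% of 16592 genes were called in either direction and 29.3% higher, and the libraries of 30% lay above all naïve ones. The call was lost in 6 of 7 fits with a library left out, all but that without naïve library 3, where the change was 5.13, and with the robust fit, the fit over all groups and the scaling by 3 genes. Summed macrophage markers were 1140 to 1441 CPM in these libraries and 177 to 185 CPM in naïve *ME* libraries, with 7 of 7 markers called higher, and their part in the rise was not tested. *Egr3* did not pass the filter on low counts. It had 12, 15, 10 and 13 counts against 1, 1 and 3 in naïve mice (pooled ratio 3.93, interval 1.58 to 12.6, counting error alone). In CPM its libraries (0.754 to 1.13) lay above all naïve ones (0.121 to 0.363). With no filter 2 of 6 genes were called, where 5604 of 24383 genes were called higher and 5052 lower. *Egr1* at 10.7 to 17.1 CPM overlapped naïve libraries (−0.56, edgeR adjusted p = 0.0606), and its fall passed without naïve library 1 (0.0465) or 2 (0.0356) and with the scaling by 3 genes (0.00503), while library totals gave a change of 0.012. The *Nr4a* genes had log2 fold changes of −0.28, −0.25 and −0.50 with adjusted p-values from 0.304 to 0.538, and library totals turned all 3 signs. Library totals also moved the median of all genes, from 0.02 to 0.62. With the scaling by 3 genes *Nr4a2* was called lower (−0.86, adjusted p 0.00779), so that this scaling called *Egr1* and *Nr4a2* in place of *Egr2*. It called 7981 of 16592 genes lower in place of 4689, and 2013 higher in place of 4855, with a median of −0.58 for all genes.

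From IM24h to IM72h *Egr1* fell by 2.21 in the *ME* (edgeR adjusted p = 2.73e-05 with a standard error of 0.19), the only call among the 6 genes, where 19.9% of 16281 genes were called lower. In this comparison 5 of 7 macrophage markers and 3 of 6 smooth muscle, fibroblast and glial markers each rose, and 3 of 4 markers of interstitial cells of Cajal and 3 of 5 tested neutrophil markers fell, and their part in the result was not tested. The order of *Egr1* in the *ME* was IM3h, IM24h, then naïve and IM72h, of which the last pair overlapped. *Nr4a1* changed by −0.84 (edgeR adjusted p = 0.0729) and passed without IM72h library 3 (0.0177). For *Egr2* the order of group means was IM3h, IM72h, IM24h and naïve, of which IM72h and IM24h did not pass the test (0.16 on the log2 scale, 95% interval −0.74 to 1.06). *Egr3* was at 0.754 to 1.13 CPM at IM72h and at 0 to 2.06 CPM at IM24h (−0.46, interval −2.26 to 1.34). DESeq2 called the change of *Nr4a1* (0.0478), and 1 fit over all *ME* groups called *Nr4a2* higher at IM72h than at IM24h (0.54, adjusted p 0.0297). For the *Nr4a* genes IM3h stood above all other groups.

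The later changes were also compared between the fractions. By the study's methods total RNA was taken from the lysate used for precipitation, so *RiboTag* and *ME* libraries of IM24h or IM72h can come from the same mice, which this test treats as independent. The labelled mouse line also changes between naïve and later *ME* libraries, but not between *RiboTag* libraries. The line cannot be told apart from these differences between fractions. At IM24h 0 of 6 genes passed the interaction test with edgeR or DESeq2, 0 had an unadjusted p under 0.05, and 0.537% of 17508 genes were called by edgeR and 4.91% by DESeq2. At IM72h 0 of 4 genes passed with either tool and 1 had an unadjusted p under 0.05, where 23.3% of 16527 genes were called by edgeR and 28.5% by DESeq2, and 28.5% had an unadjusted p under 0.05 and a more than 2-fold lower change. That gene was *Nr4a3*, whose change was lower in *RiboTag* than in *ME* libraries by 7.27 on the log2 scale (95% interval −13.39 to −1.14, edgeR adjusted p = 0.0881). Its 4 *RiboTag* libraries at 0 counts make the size of this estimate depend on the prior count. Without naïve *RiboTag* library 1, where *Nr4a3* had 0 counts, its adjusted p was 0.0110. Without IM72h *RiboTag* library 2, *Nr4a1* differed by −4.68 (0.00573) and *Nr4a2* by −8.60 (0.0406).

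In naïve mice the 2 fractions were compared on counts relative to *Actb*, *Hsp90ab1* and *Rplp1* (their geometric mean in the library). Ratios of *RiboTag* to *ME* were 1.13 for *Egr1*, 0.0713 for *Egr2*, 1.72 for *Egr3*, 1.04 for *Nr4a1*, 0.992 for *Nr4a2* and 0.753 for *Nr4a3*. The libraries of the fractions overlapped for all 6 genes, with exact permutation p-values from 0.7 to 1 (two-sided, n = 3 against 3, smallest possible p 0.1, all 1 after adjustment over the 6). The ratio of *Egr2* was 0.903 without naïve *ME* library 3, and 0 without naïve *RiboTag* library 3, which held the single count. With so few counts no direction can be given for *Egr2*. With a library left out the ratio ranged from 0.675 to 1.48 for *Egr1*, 0.396 to 2.58 for *Egr3*, 0.65 to 1.24 for *Nr4a1*, 0.677 to 1.49 for *Nr4a2* and 0.556 to 1.66 for *Nr4a3*, so no direction can be given for these 5 genes. The lowest values came without naïve *RiboTag* library 2 (*Egr1*, *Nr4a2*, *Nr4a3*) or 3 (*Egr3*, *Nr4a1*), and the highest without naïve *ME* library 3 (*Egr1*, *Nr4a3*) or naïve *RiboTag* library 1 (*Egr3*, *Nr4a2*) or 2 (*Nr4a1*). Scaling by library totals gave 1.70 for *Egr1*, 0.101 for *Egr2*, 2.5 for *Egr3*, 1.61 for *Nr4a1*, 1.41 for *Nr4a2* and 1.05 for *Nr4a3*.

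Among the relatives and partners, *Egr4* followed the *Egr* genes at low counts. In the *ME* it had 0, 0 and 2 counts in naïve mice, 26, 48 and 34 at IM3h and at most 1 later, and its rise at IM3h passed the test (5.66, standard error 0.75, edgeR adjusted p = 3.18e-04). In *RiboTag* libraries *Egr4* had 0 counts in naïve mice and 1, 23, 13 and 1 counts at IM3h, pooled at least 7.46-fold higher with 3 counts over the naïve group as the floor. The corepressor gene *Nab2* was at 12.3, 14.9 and 13.6 CPM in naïve *RiboTag* libraries and at 59.4, 54.4, 42.6 and 36.2 CPM at IM3h. It rose by 1.88 (edgeR adjusted p = 0.00174 with a standard error of 0.30) and no IM3h library was near the naïve ones.

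*Nab2* rose by 0.55 in the *ME* at IM3h (edgeR adjusted p = 0.0470), by 1.10 at IM24h (0.00154) and, at IM72h, by 0.75 (0.00165), with a rise of 0.63 from IM3h to IM24h (0.0418), between which the labelled mouse line changed. *Nab1* rose by 0.93 in the *ME* at IM3h (edgeR adjusted p = 3.62e-04) and had a change of 0.61 in *RiboTag* libraries (0.0880). The retinoid X receptor gene *Rxra* fell by 1.61 in *RiboTag* libraries (edgeR adjusted p = 0.0159). *Wt1*, a zinc finger gene related to *Egr1* that marks mesothelium, fell by 2.47 in *RiboTag* libraries and by 2.88 in the *ME* (edgeR adjusted p = 0.0354 and 9.60e-04), and it is counted among the 3 of 4 and 4 of 5 mesothelial markers that fell. At IM3h 4.44% of all genes tested were called lower in *RiboTag* and 13.4% in *ME* libraries, beside the 8.86% and 19.3% called higher. Of 7 genes in this list 6 could be tested in each fraction, and 1 rose and 2 fell in *RiboTag*, 3 rose and 1 fell in *ME* libraries, with medians of −0.81 and 0.38 against −0.04 and 0.00 for all genes.

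The factors upstream of *Egr* and *Nr4a* genes (SRF, its ternary complex and myocardin-related partners, CREB with its coactivators, and MEF2) had 16 genes tested in each fraction at IM3h. Of these 2 rose and 1 fell in *RiboTag* and 5 rose and 1 fell in *ME* libraries, with medians of 0.08 and 0.05 against −0.04 and 0.00 for all genes, of which 8.86% and 19.3% were called higher and 4.44% and 13.4% lower. *Mef2d* rose by 1.23 and 1.5 (edgeR adjusted p = 0.0344 and 2.05e-04), and *Mef2c* fell by 1.06 and 1.44 (0.0299 and 1.45e-04). *Elk4*, a ternary complex factor, rose by 0.95 in *RiboTag* libraries (edgeR adjusted p = 0.0291), and *Atf1*, a relative of CREB, rose by 1.06 in the *ME* (0.00142).

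Other activity-regulated genes were mostly called as well. Of 20 genes 19 rose in each fraction at IM3h, with medians of 2.88 in *RiboTag* and 2.83 in *ME* libraries, where 8.86% and 19.3% of all genes were called higher, and the median of the 6 members was 4.93 and 3.20. *Fosl1* had 0 counts in all naïve libraries and was at least 556-fold higher in *RiboTag* and at least 797-fold higher in *ME* libraries, with 3 counts over the naïve group as the floor. *Fosb* rose by 8.93 and 6.82 (edgeR adjusted p = 1.85e-05 and 2.51e-05) and *Arc*, a synaptic immediate early gene, by 7.59 and 6.43 (4.87e-04 and 3.07e-06). The exception was *Npas4*, the neuronal factor, with changes of −1.98 and −1.21 (edgeR adjusted p = 0.204 and 0.0947). At IM24h 1 of 17 genes tested was higher than in naïve mice in *RiboTag* and 11 of 19 in *ME* libraries, against 0.366% and 15.6% of all genes.

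A list of known target genes of EGR1 and EGR3 held 7 genes. Of these 3 rose in *RiboTag* and 4 in *ME* libraries at IM3h and 0 fell, with medians of 1.73 and 0.76, where 8.86% and 19.3% of all genes were called higher. Beside *Arc* and *Nab2*, *Cdk5r1*, the activator p35 of CDK5, rose by 1.73 in *RiboTag* and by 1.05 in *ME* libraries (edgeR adjusted p = 0.0187 and 0.0183), and *Tgfb1* rose by 1.44 in the *ME* (0.0113). *Pdgfa*, a growth factor gene, had changes of 0.43 in *RiboTag* and −0.07 in *ME* libraries (edgeR adjusted p = 0.247 and 0.674).

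The myelin program that EGR2 drives in Schwann cells was described by 10 genes. Of these 8 could be tested in *RiboTag* libraries, where 1 rose and 2 fell with a median of −0.61, and 5 in *ME* libraries, where 2 rose and 3 fell with a median of −0.71, beside the 8.86% higher and 4.44% lower of all genes in *RiboTag* and 19.3% higher and 13.4% lower in *ME* libraries. *Cnp*, an enzyme of myelinating glia, fell by 1.67 and 1.17 (edgeR adjusted p = 0.00157 and 0.00126), and *Mbp*, myelin basic protein, by 0.88 and 0.77 (0.0434 and 0.0272). *Pou3f1*, a factor of promyelinating Schwann cells, rose by 1.16 in *RiboTag* and by 3.82 in *ME* libraries (edgeR adjusted p = 0.0296 and 2.60e-04). It was at 19.3 to 22.7 CPM in naïve and 27.8 to 56.0 CPM in IM3h *RiboTag* libraries.

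**Figure D4:**
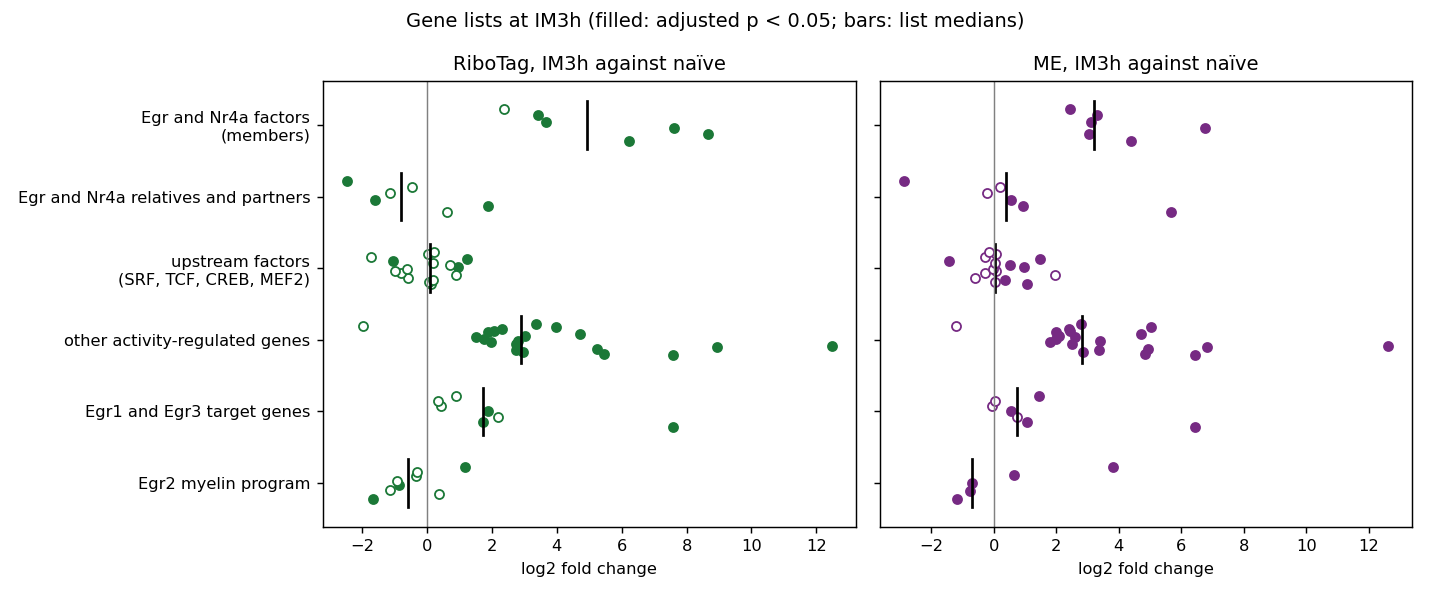
Log2 fold changes (horizontal axis) at IM3h against naïve mice for the genes of 6 lists, in *RiboTag* (left) and *ME* libraries (right). Each point is a gene, filled where the adjusted p was under 0.05, and bars are list medians. The members lie to the right of 0 with a median of 4.93 in *RiboTag* libraries, as do the other activity-regulated genes but *Npas4*, with a median of 2.88, and the point farthest to the right in each fraction is *Fosl1*, whose size depends on the prior count because naïve libraries had 0 counts.

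Genes with a pattern most like that of each member were ranked by Pearson's r of log2 CPM over all libraries of a fraction, 15 in *RiboTag* and 14 in *ME*, as a description. All libraries of a time point enter together, so r mostly follows the peak at IM3h and shares library depth. In the *ME* the nearest genes were *Mat2a* (0.98), *Etf1* and *Maff* for *Egr1*, *Oat* (0.96), *Ppan* and *Zfp451* for *Egr3*, and *Ttll3* (0.93), *Snhg5* and *Sesn2* for *Egr2*. The immediate early genes *Fos* (0.95), *Egr4* (0.98) and *Fosb* (0.96) came first for *Nr4a1*, *Nr4a2* and *Nr4a3*. In *RiboTag* libraries the first genes were *Hdac4* for *Egr1* (0.94), *Gm45053* for *Egr2* (0.98), *Rpl26-ps6* for *Egr3* (0.90), *Champ1* for *Nr4a1* (0.94), *Lzic* for *Nr4a2* (0.94) and *Gm12795* for *Nr4a3* (0.95). Between members r ranged from 0.63 to 0.92 in *RiboTag* and from 0.48 to 0.92 in *ME* libraries, lowest for *Egr3* with *Nr4a1* and for *Egr2* with *Nr4a2*.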

How the data were processed

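Per the study's methods and processing notes, 3′ end libraries were trimmed with cutadapt, aligned with STAR to mm10 and quantified on Ensembl transcripts in Partek Flow, and the deposited values are the authors' estimated counts, not scaled for library size. Tables of the authors' comparisons (group means, ratios, fold changes and p-values) were not used. Names of libraries match no sample title, so libraries were grouped by the group entry of each table. *RiboTag* transcripts were summed by symbol, and counts were rounded to whole numbers. In R 4.3.3, edgeR 4.0.16 and limma 3.58.1, the quasi-likelihood test on TMM-normalized counts past filterByExpr was fitted on the 2 groups compared, or 4 for differences between fractions, with Benjamini-Hochberg adjustment over all genes tested. DESeq2 1.42.0, other scalings, filters and fits and leaving out each library were alternatives. The study's legends count 3 to 4 animals per time point, which the numbers of libraries match, so libraries of a fraction were taken as separate mice. Libraries of the 2 fractions can share mice, and the tables do not pair them. Levels from estimated counts rest on total counts per library, and intervals of pooled ratios cover counting error only (scipy 1.17.1). The tests were tested on simulated data first.

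Members are named in every comparison of a time point with naïve mice, but not in every other comparison. From each further list the 3 genes with the largest change among those called at IM3h in a fraction are named, and *Egr4*, *Nab1* and *Nab2* always. *Npas4* and *Pdgfa* were named after their values were seen. The genes and lists were chosen with earlier results of these data known.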

Additional observations from a re-analysis of the deposited data

Results flagged for a closer look

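In 27 groups of 4 libraries the highest and lowest library were checked by Dixon's test, which flags about 1 group in 20 by chance. A library stood apart from the others of its group 3 times, each time a *RiboTag* library at a low level. *Egr2* reached 6.14 CPM (49 counts) in IM24h library 1, with 0, 0 and 5 counts in the others. *Nr4a1* reached 18.4 CPM (42 counts) and *Nr4a2* 2.19 CPM (5 counts) in IM72h library 2, where the other libraries had at most 1 and 0 counts. IM24h library 1 had the lowest share of AY036118 in its group (22.2% against 32.9% to 59.2%), as had IM72h library 2 (58.0% against 60.3% to 80.1%), and the part of this share in these values was not tested.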

How the results depend on the processing

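No paired analysis was possible because the tables carry no replicate numbers. At IM3h all 6 genes kept a positive change in both fractions under every alternative. The number of members called went from 5 to 1 at IM3h in *RiboTag* with 1 fit over all groups. At IM24h against naïve it went in *RiboTag* from 0 to 1 with DESeq2 and with p under 0.05 and more than 2-fold, and in *ME* from 1 to 2 with library totals and 3 with 1 fit. At IM72h in *ME* it went from 1 to 2 with scaling by *Actb*, *Hsp90ab1* and *Rplp1* or no filter, and to 0 with 1 fit or the robust fit. From IM3h to IM24h in *RiboTag* it went from 1 to 5 with DESeq2, 4 with no filter and 6 with the 2-fold rule. From IM24h to IM72h it went in *RiboTag* from 0 to 2 with 1 fit and 1 with the 2-fold rule, and in *ME* from 1 to 2 with DESeq2 or 1 fit. For differences between fractions it went from 0 to 2 with DESeq2 or the 2-fold rule and 1 with the robust fit at IM3h, and at IM72h to 2 with library totals and 1 with the scaling by 3 genes or the 2-fold rule. The number of all genes called moved with the setting too. Genes called higher went from 1422 to 22 at IM3h in *RiboTag* with 1 fit, and from 2553 to 6281 at IM24h in *ME* with library totals. The cause of these shifts was not tested.

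With a library left out, members called ranged from 4 to 6 at IM3h in *RiboTag* and 5 to 6 in *ME*, 0 to 1 at IM72h in *RiboTag*, 1 to 2 at IM24h and 0 to 2 at IM72h in *ME*, 1 to 2 (*RiboTag*) and 5 to 6 (*ME*) from IM3h to IM24h, 1 to 2 from IM24h to IM72h in *ME*, and 0 to 2 for differences between fractions at IM3h and IM72h.

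Signs turned with library totals, against naïve mice, for *Nr4a1* (−0.33) and *Nr4a2* (−0.67) in *RiboTag* at IM24h and, in *ME*, for *Nr4a3* at IM24h (0.24) and *Egr1* (0.012), *Nr4a1* (0.30), *Nr4a2* (0.34) and *Nr4a3* (0.046) at IM72h. They turned with the scaling by 3 genes for *Nr4a1* (−0.93) and *Nr4a2* (−1.59) in *RiboTag* at IM24h, and with DESeq2 for the latter (−0.10). In differences between fractions they turned at IM24h for *Egr1* (−0.98 with library totals, −0.48 with 3 genes) and *Nr4a2* (−0.54, −0.49), and at IM72h for *Egr1* (0.32 with DESeq2, 0.076 with 1 fit). None of these values had been called. Scaling by 3 genes moved the median of all genes to −0.45, −1.51 and −2.07 in *RiboTag* at IM3h, IM24h and IM72h. Library totals moved this median to −0.96 in *RiboTag* at IM24h, and to 0.66 and 0.62 in *ME* at IM24h and IM72h.

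With libraries left out, 23 changes reversed, within these ranges. In *RiboTag*, *Nr4a2* at IM24h ranged from −1.51 to 0.46 and *Egr1* at IM72h from −1.39 to 0.028. In *ME*, *Nr4a3* ranged from −0.72 to 0.77 at IM24h and −0.93 to 0.61 at IM72h, and from IM24h to IM72h *Egr2* from −0.014 to 0.46 and *Nr4a3* from −0.58 to 0.052. Differences between fractions ranged from −0.38 to 0.63 for *Nr4a2* and −1.15 to 0.45 for *Nr4a3* at IM3h, from −0.44 to 0.48 for *Nr4a1* and −0.71 to 1.28 for *Nr4a2* at IM24h, and from −0.94 to 0.20 for *Egr1* at IM72h. At IM72h few reads limit what *RiboTag* libraries can show.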

Other observations

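The split of counts between transcripts of a gene was estimated by the authors' quantification from 3′ end reads, which rarely separate transcripts that share an end, so these shares are values of that estimate. *Egr1* counts in the *ME* were given to transcript *Egr1-201* at a pooled share of 56.2% in the naïve group, 52.3% and 45.2% at the next time points and 89.4% at IM72h, where all 4 libraries lay between 83% and 99.9%. In *RiboTag* libraries the same transcript had 50.7% in the naïve group (about 0% to 64.4% over libraries), 24.3% at IM3h, 5.24% for IM24h and 21.1% of only 71 counts at IM72h, with libraries from about 0% to 100%. *Nr4a2-206* had 64.7% of *Nr4a2* counts in the *ME* at IM3h (49.7% to 77.6% over libraries), 13.1% at IM72h (4.46% to 18%), 58.9% in the naïve group (13.2% to 85.6%) and 21.0% for IM24h (about 0% to 84.0%). In *RiboTag* libraries it had 25.9% at IM3h (9.76% to 77.4%) and about 0% in all other groups. The annotation gives *Nr4a2-206* as a transcript of nonsense-mediated decay. No test was run on these shares.

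Most *Egr3* counts were given to *Egr3-202*, in the *ME* 75.2% of only 5 counts in the naïve group, 99.4% at IM3h, 82.0% for IM24h and 99.9% at IM72h, and in *RiboTag* libraries 95.6% of only 7 counts in the naïve group, 100% at IM3h and 91.2% for IM24h. *Egr3-202* is annotated as a retained intron and not as a protein-coding transcript. *Nr4a1* was split between *Nr4a1-201* and *Nr4a1-202* at 81.5% and 18.5% in naïve, IM24h and IM72h libraries of both fractions.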
